A study of Mus musculus with 12 samples.

Results

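The genes described here encode enzymes that make serine, pass its carbon to folate and make proline. They were chosen by name, as the 10 rows of a deposited table of 43472 genes that carry the symbols Phgdh, Psat1, Psph, Shmt1, Shmt2, Mthfd1, Mthfd2, Mthfd1l, Mtr and Pycr1, and all 10 were among the 10751 genes abundant enough to be tested. The list was drawn up with earlier results of these data in view: Mthfd2 and Pycr1 at the late blastocyst stage and Mtr at the morula stage had already been seen to differ between the siRNAs. For that reason the siRNA differences of these genes, and their stage differences within 1 siRNA arm, are given as a description, and only the differences between stages with both arms averaged were tested. Averaging does not remove the values by which Mthfd2, Pycr1 and Mtr were noticed. Stage calls of these genes that use those values are therefore not independent of the choice.

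The RNA came from embryos of CD1 mice, an outbred stock, whose zygotes had received either a Tdgf1 siRNA or the negative control. Cripto, the product of Tdgf1, is a co-receptor for Nodal. Every embryo of both arms had also been given GFP mRNA as a mark of injection, and no uninjected group was analysed here. Embryos were taken as morulae, as early blastocysts or as late blastocysts, which gives 6 groups of 2 libraries, 12 in all, called control 1 and 2 and Tdgf1 siRNA 1 and 2 within a stage after their label numbers. How many embryos went into a library is not stated in the labels. Nothing says that the 2 libraries of a group came from separate embryos or injections, so p-values reflect only how these samples differ, and that spread may be technical. Levels are in CPM, reads of a gene per 1e+06 reads of its library. Log2 changes are differences of log2(value + 1) with values as deposited, so that the pseudocount equals 3.582 CPM, which understates changes of low genes. They carry a standard error (SE), and adjusted p-values come from limma with Benjamini-Hochberg adjustment over all genes tested, at a threshold of 0.05.

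As background, Phgdh, Psat1 and Psph act in that order to turn a glycolytic intermediate into serine. The hydroxymethyltransferases, Shmt1 in the cytosol and Shmt2 in mitochondria, split serine into glycine and a carbon unit held on tetrahydrofolate. Mthfd1 in the cytosol and Mthfd2 and Mthfd1l in mitochondria interconvert the forms of that carbon, which is used to build purines and thymidylate, and Mtr passes a methyl group from folate to homocysteine to form methionine. Pycr1 catalyses the last step of proline synthesis in mitochondria. Phgdh, Psat1, Shmt2, Mthfd2 and Pycr1 are known targets of ATF4, a transcription factor made when amino acids run short, which binds with a C/EBP partner to an element written TGATGNAA. Asns, asparagine synthetase, is a standard target of the same factor.

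The stretches before 2 of the genes are shown because Pycr1 was among the 3 genes closest to Mthfd2 across the libraries and the stretches differ in this element. That closeness includes the late blastocyst values by which Mthfd2 and Pycr1 had been noticed. Both stretches are the 250 bases before the RefSeq start (GRCm38.p6), 5′ to 3′ on the minus strand, at chr11:120643749-120643998 for Pycr1 and chr6:83317605-83317854 for Mthfd2. Capitals mark a match to TGATGNAA.
Pycr1: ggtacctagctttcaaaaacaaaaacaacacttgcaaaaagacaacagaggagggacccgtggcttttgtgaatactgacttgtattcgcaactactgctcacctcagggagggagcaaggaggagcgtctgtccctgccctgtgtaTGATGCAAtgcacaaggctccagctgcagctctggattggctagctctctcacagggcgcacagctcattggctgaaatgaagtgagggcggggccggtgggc
Mthfd2: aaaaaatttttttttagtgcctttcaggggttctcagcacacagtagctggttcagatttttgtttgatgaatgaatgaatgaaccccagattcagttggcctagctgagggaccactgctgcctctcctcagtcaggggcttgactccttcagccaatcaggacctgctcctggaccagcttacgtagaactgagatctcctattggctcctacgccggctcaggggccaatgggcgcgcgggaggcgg

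TGATGNAA was searched on both strands of windows of 300 bases, 250 before and 50 after each start, and occurred in 1304 of 32851 RefSeq windows (3.97%). All 10 genes had at least 1 window, 11 windows together, and only the window of Pycr1 held a match, TGATGCAA, 103 bases before the start. The window of Asns held TGATGAAA, 23 bases before its start. The longer form TGATGNAAN, which contains the first, occurred in 1299 windows (3.95%) and matched the same places in Pycr1 and Asns. A match describes the letters only, and its absence from the Mthfd2 window describes only that window. GENCODE release M21 also draws a Mthfd2 start upstream of the RefSeq one, with the gene at 83305691 to 83325908 on chromosome 6. It draws Asns at 7675169 to 7693254 on the minus strand of that chromosome, also past the RefSeq start, and the Asns match lies inside that gene.

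The libraries held 10524640 to 13770264 reads, and the 10 genes were covered by 39 (Pycr1, morula control 1) to 14501 reads (Psat1, morula Tdgf1 siRNA 1) each. Tdgf1 itself was lower in the Tdgf1 siRNA library in 5 of 6 same-numbered pairs, at 42.6% to 83.6% of control. The library labelled early blastocyst Tdgf1 siRNA 2 went against its label, at 117% of control 2 of that stage. The first principal component of all tested genes held 70.8% of the variance and ordered the stages. On it, both early blastocyst libraries numbered 2 (-20.2 and -15.9) lay nearer the morulae (-50.3 to -46.0) than both numbered 1 (6.01 and 1.20), and late blastocyst Tdgf1 siRNA 1 (46.9) lay below the other libraries of its stage (56.5 to 60.5). The summed level of 9 trophectoderm markers followed the same order: 567 to 872 CPM at morula, 3845 and 4131 CPM in early blastocysts numbered 1, 1790 and 1962 CPM in those numbered 2, 6371 CPM in late blastocyst Tdgf1 siRNA 1 and 7463 to 8910 CPM in the other late blastocysts. The 10 cumulus and granulosa cell markers summed to 5.87 to 24.2 CPM, most of it Amhr2 (3.58 to 23.2 CPM), the only 1 of them abundant enough to be tested. Has2, Tnfaip6, Fshr and Inhba had 1 read in 1 library each, which counting error alone does not separate from 0. No marker of the 4 lists, epiblast and primitive endoderm included, was at 0 in every library. In these bulk libraries fewer cells of a type and less RNA per cell cannot be told apart, and the part of cell composition in the results below was not tested.

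Psat1 was the most abundant of the 10 transcripts at morula. Per kilobase of exon, it stood at 269 CPM per kb at morula, ahead of Phgdh (38.5), Mthfd1 (19.7), Shmt1 (14.8), Shmt2 (12.2), Mthfd2 (9.05), Psph (4.16), Mtr (2.38), Pycr1 (1.25) and Mthfd1l (1.23 CPM per kb). Ranges overlapped at that stage between Shmt1 (10.3 to 18.0) and Shmt2 (9.32 to 13.5), between both and Mthfd2 (7.60 to 10.9 CPM per kb), and among Mtr, Pycr1 and Mthfd1l, so the order of these neighbours is not separable from the spread. By the late blastocyst the levels lay closer together: Psat1 and Phgdh had the same mean of 54.9 CPM per kb, with ranges of 42.8 to 70.2 and 48.4 to 62.2, followed by Mthfd1 (34.9), Shmt1 (24.2), Mthfd2 (21.4), Shmt2 (13.9), Psph (11.0), Pycr1 (3.91), Mthfd1l (2.51) and Mtr (1.48). Mthfd2 (11.1 to 28.9) then overlapped with Shmt1, Shmt2 and Psph, Shmt2 with Psph, and Pycr1 (1.18 to 6.97) with Mthfd1l and Mtr. Psat1 made up 74.4% to 77.8% of the summed CPM of the 10 genes in morulae, 46.2% to 60% in early blastocysts and 24.7% to 33.8% in late blastocysts. The other 9 genes together summed to 335 to 377 CPM in morulae and 474.5 to 702.5 CPM in late blastocysts.

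**Figure D1:**
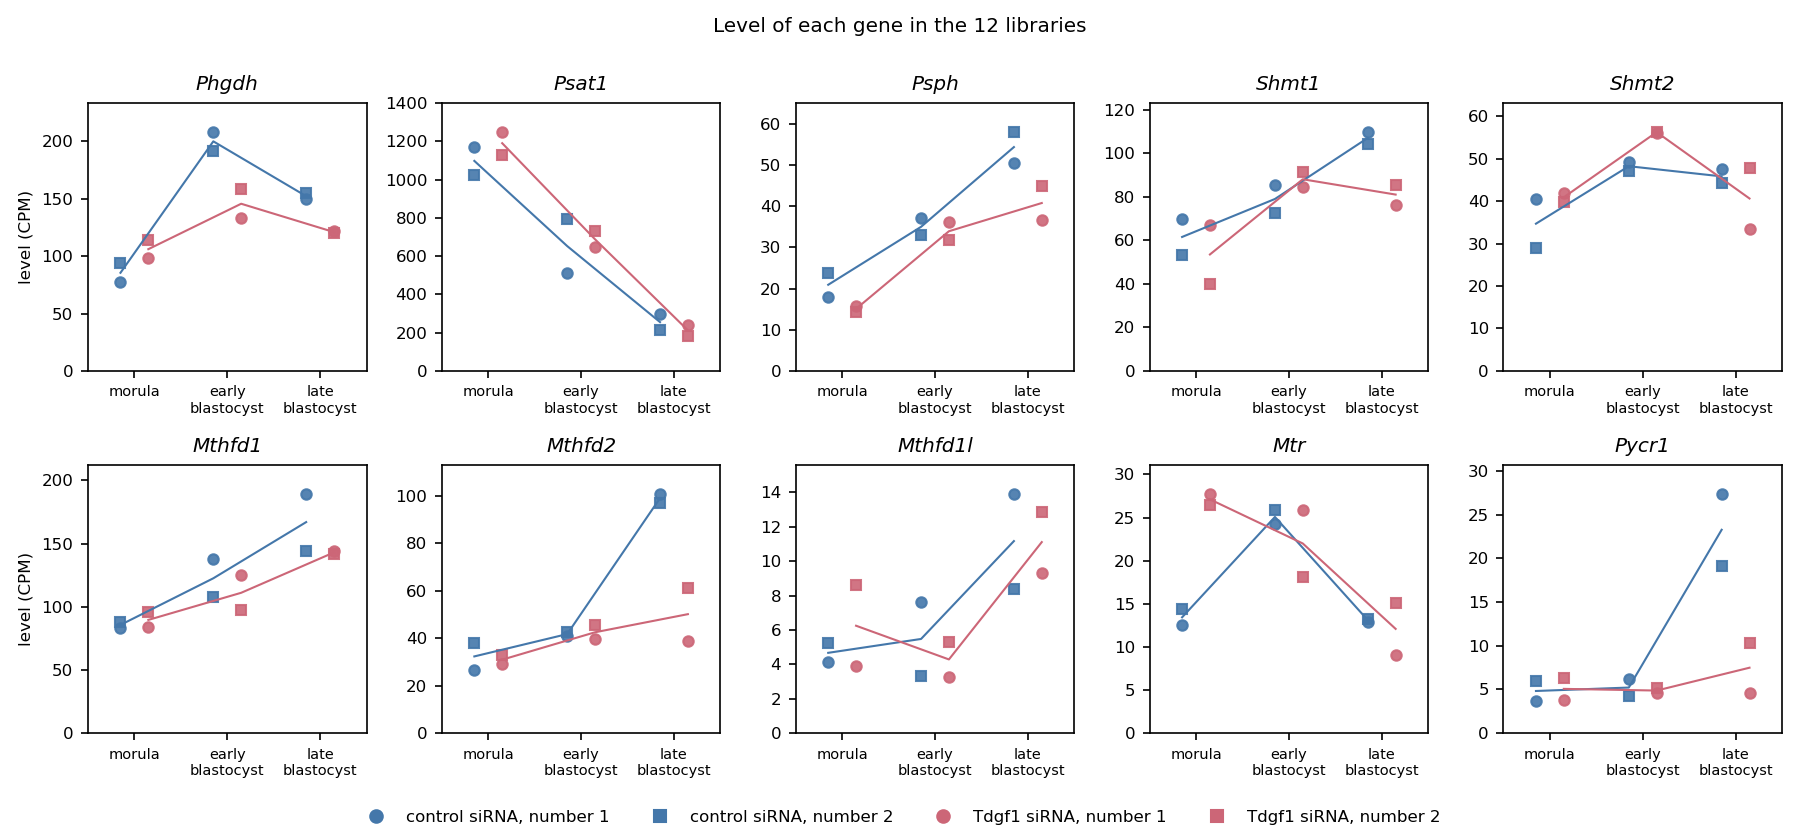
Level of each of the 10 genes in CPM (vertical axes, each from 0) at the 3 stages, control siRNA in blue and Tdgf1 siRNA in red. Circles are libraries numbered 1, squares those numbered 2, and lines join group means. Psat1 fell at each step, and Mthfd2 and Pycr1 were highest in the 2 late blastocyst controls.

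Between morula and early blastocyst, 5 of the 10 genes rose (Phgdh, Psph, Shmt1, Shmt2 and Mthfd1) and 1 fell (Psat1). Over all genes tested, 33.7% passed in this comparison, 19.7% higher and 14% lower. Between early and late blastocyst, 5 rose (Mthfd2, Mthfd1, Mthfd1l, Psph and Pycr1) and 3 fell (Psat1, Phgdh and Mtr), where 44.7% of all genes passed, 27% higher and 17.7% lower. The 4 libraries of a stage did not overlap with those of the next for 6 higher and 1 lower of the 10 genes at the first step (33.7% of all genes, 19.7% higher and 14.1% lower), and for 2 higher and 2 lower at the second (43.6%, 25.7% higher and 17.9% lower). Over the whole interval they did not overlap for 5 higher and 1 lower (58.9%, 35.3% higher and 23.5% lower). From morula to late blastocyst 7 rose and 2 fell, with Shmt2 not passing, where 60.9% of all genes passed, 36.6% higher and 24.3% lower. The median log2 change of the 10 genes was 0.39, 0.28 and 0.70 in these 3 comparisons, and that of all genes 0.05, 0.09 and 0.13. Libraries numbered 1 alone gave 4, 3 and 9 calls and libraries numbered 2 alone 5, 6 and 8. The labels do not say what the numbers stand for. The share of all genes passing in these smaller fits is not given here, so their counts are not read as particular to the 10 genes. Of all calls, 60.4% were higher at the second step and 60% over the whole interval, against 46.8% and 46.6% after quantile normalization, which moved the median of all genes over the interval from 0.13 to -0.07.

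**Figure D2:**
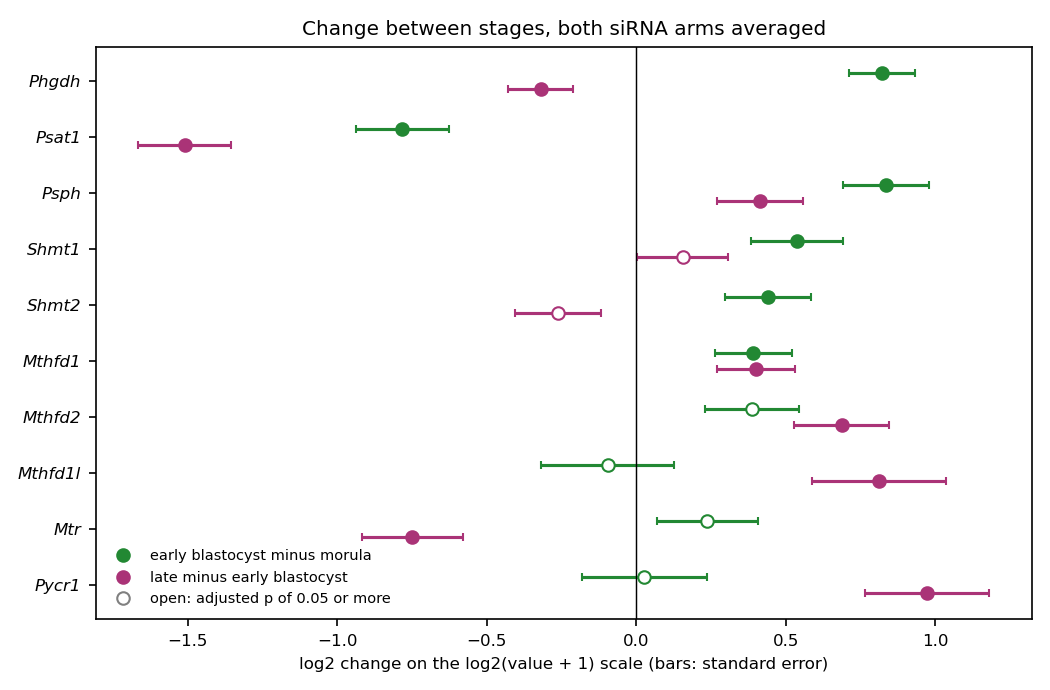
Log2 change (horizontal axis) of the 10 genes between neighbouring stages, with both siRNA arms averaged, and bars of 1 standard error. Filled points passed an adjusted p of 0.05. Psat1 was lower at both steps, and Phgdh was higher at the first and lower at the second.

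The 3 serine synthesis genes moved apart. Phgdh, the dehydrogenase of the entry step (chromosome 3, 98313170 to 98339990, minus strand, GRCm38), stood at 77.3 and 93.7 CPM in morula controls and 98.4 and 114 CPM in morula Tdgf1 siRNA libraries. At early blastocyst it reached 208.5 and 191 CPM in controls and 133 and 158 CPM with Tdgf1 siRNA. The early blastocysts did not overlap with the morulae, and the change was 0.82 (SE 0.11, adjusted p = 0.000154). Late blastocysts held 150 and 155 CPM in controls and 121 and 120 CPM in Tdgf1 siRNA libraries, a fall of 0.32 on the log2 scale (SE 0.11, adjusted p = 0.0297) that overlapped with the early blastocysts. This fall no longer passed without early blastocyst control 1 or Tdgf1 siRNA 2 or without any 1 of the 4 late blastocysts (adjusted p = 0.0622 to 0.101). Late blastocysts remained above morulae by 0.50 (adjusted p = 0.00138).

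Psat1, the aminotransferase of the middle step (chromosome 19, 15904678 to 15947337, minus strand), went the opposite way at the first step. It stood at 1172 and 1023 CPM in morula controls and 1251 and 1129 CPM in morula Tdgf1 siRNA libraries, at 511.5 and 793 against 646 and 730 CPM at early blastocyst, and at 299 and 211 against 242 and 182 CPM at late blastocyst. The 3 stages did not overlap. The fall was 0.78 on the log2 scale at the first step (SE 0.15, adjusted p = 0.00193) and 1.51 at the second (SE 0.15, adjusted p = 8.58e-06), and each call held without any 1 library. From morula to late blastocyst the log2 change was -2.29 (SE 0.15, adjusted p = 6.42e-08), larger in size than that of any other of the 10 genes.

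Psph, the phosphatase of the last step (chromosome 5, 129765558 to 129787449, minus strand), rose at both steps. Its mean was 18.0 ± 4.17 CPM in morulae, 34.5 ± 2.59 CPM in early blastocysts and 47.6 ± 9.05 CPM in late blastocysts (SD, n = 4 each). The rise was 0.83 at the first step (SE 0.14, adjusted p = 0.000771), with no overlap. At the second step it was 0.41 (adjusted p = 0.0316), with overlap, and it was lost without any 1 of early blastocyst control 2, early blastocyst Tdgf1 siRNA 2, late blastocyst control 1, control 2 or Tdgf1 siRNA 2 (adjusted p = 0.0518 to 0.119). The values of Psph are uncertain, because 452 of its exonic bases overlap on the other strand with exons of Cct6a, a chaperonin gene at 254 to 560 CPM, and no source states that strand was used in counting. Cct6a had stage means of 317, 519 and 297 CPM, higher in early blastocysts than in morulae, as Psph was, and lower in late blastocysts, where Psph was higher still. Its part in the Psph values was not tested.

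Both serine hydroxymethyltransferase genes rose at the first step, and neither passed at the second. Shmt1, the cytosolic form (chromosome 11, 60788104 to 60811718, minus strand), stood at 69.7 and 53.4 CPM in morula controls, 67.2 and 39.8 CPM in morula Tdgf1 siRNA libraries, 72.7 to 91.6 CPM in the 4 early blastocysts, and 110 and 104 against 76.5 and 85.6 CPM in late blastocysts. Early blastocysts lay above all morulae, by 0.54 on the log2 scale (SE 0.15, adjusted p = 0.0158), a call lost without morula control 2 (adjusted p = 0.0658), morula Tdgf1 siRNA 2 (0.0713) or early blastocyst control 1 (0.0545). The second step did not pass (0.15, SE 0.15, adjusted p = 0.432), and late blastocysts exceeded morulae by 0.69 (adjusted p = 0.00145). Shmt1 shares 184 exonic bases with Smcr8 on the other strand, a gene at 5.66 to 16.1 CPM.

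Shmt2, the mitochondrial form (chromosome 10, 127517123 to 127522444, minus strand), had a mean of 37.8 ± 5.96 CPM in morulae, 52.3 ± 4.71 CPM in early blastocysts and 43.2 ± 6.74 CPM in late blastocysts (SD, n = 4 each). It rose by 0.44 at the first step (SE 0.14, adjusted p = 0.0307), with no overlap. That call was lost without any 1 of morula control 2, morula Tdgf1 siRNA 1 or 2, early blastocyst control 1, or early blastocyst Tdgf1 siRNA 1 or 2 (adjusted p = 0.0584 to 0.121). Neither the second step (-0.26, adjusted p = 0.156) nor the whole interval (0.18, adjusted p = 0.301) passed, and the latter turned to -0.03 after quantile normalization. Within a library, the log2 level of Shmt2 minus that of Shmt1 averaged -0.55 ± 0.37 in morulae, -0.64 ± 0.09 in early blastocysts and -1.06 ± 0.18 in late blastocysts (SD, n = 4 each). The drop of 0.42 from early to late blastocyst separated all 8 libraries, with an exact two-sided permutation p = 0.0286, the smallest that 70 assignments can give, and p = 0.171 after adjustment over the 6 balance tests.

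The cytosolic folate gene Mthfd1 rose steadily. It encodes an enzyme of 3 activities (chromosome 12, 76255298 to 76319803, plus strand) and stood at 83.1 and 88.2 CPM in morula controls, 83.7 and 95.5 CPM in morula Tdgf1 siRNA libraries, 137.5 and 108 against 125 and 97.1 CPM at early blastocyst, and 190 and 144.5 against 144.5 and 142 CPM at late blastocyst. The stages did not overlap. It rose by 0.39 at the first step (SE 0.13, adjusted p = 0.0326) and by 0.40 at the second (SE 0.13, adjusted p = 0.0228), and by 0.79 in all (adjusted p = 0.000133). The first step was lost without any 1 of morula control 1 or 2, morula Tdgf1 siRNA 1, or early blastocyst control 1 or Tdgf1 siRNA 1 (adjusted p = 0.0578 to 0.128). The second was lost without any 1 of early blastocyst control 2 or Tdgf1 siRNA 2, or late blastocyst control 1 or Tdgf1 siRNA 1 or 2 (adjusted p = 0.0539 to 0.114). The rise over the whole interval held without any 1 library.

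Of the mitochondrial folate genes, Mthfd2 (chromosome 6) had a late rise that the control libraries carried. It encodes the dehydrogenase and cyclohydrolase typical of embryonic and dividing cells. Morula levels were 26.5 and 38.0 CPM in controls and 28.9 and 32.9 CPM with Tdgf1 siRNA, and early blastocyst levels 40.8 and 42.6 against 39.5 and 45.4 CPM. Late blastocyst levels were 101 and 97.0 CPM in controls but 38.8 and 61.3 CPM with Tdgf1 siRNA. All early blastocysts lay above all morulae, yet the first step missed the threshold (0.39, SE 0.16, adjusted p = 0.0738). It passed when the library number was added to the limma fit as a term shared by all stages (adjusted p = 0.0421). Numbers were not taken to pair libraries across stages. The second step was 0.69 (SE 0.16, adjusted p = 0.00327) and the whole interval 1.07 (SE 0.16, adjusted p = 5.2e-05). The second step was 1.18 in controls alone and 0.19 in Tdgf1 siRNA libraries alone (SE 0.22 each). That difference between arms is the contrast by which Mthfd2 had been noticed.

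Mthfd1l, the mitochondrial formate-producing ligase (chromosome 10, 3973118 to 4167081, plus strand), was low throughout. It stood at 3.88 to 8.60 CPM in morulae, 3.28 to 7.61 CPM in early blastocysts and 8.41 to 13.9 CPM in late blastocysts, from 40 to 152 reads per library. The second step was a rise of 0.81 (SE 0.22, adjusted p = 0.00965) with no overlap, lost without late blastocyst control 1 (0.68, adjusted p = 0.0523). Late blastocysts exceeded morulae by 0.71 (adjusted p = 0.0131), lost without morula Tdgf1 siRNA 1, late blastocyst control 1 or late blastocyst Tdgf1 siRNA 2 (adjusted p = 0.0533 to 0.0664). The log2 level of Mthfd2 minus that of Mthfd1 within a library averaged -1.38 ± 0.17, -1.39 ± 0.29 and -1.10 ± 0.53 over the stages (SD, n = 4 each). The step from early to late blastocyst was 0.29 (exact two-sided permutation p = 0.4, adjusted p = 0.6), less than the spread among late blastocysts. That spread ran between the arms: from early to late blastocyst the controls went from -1.67 and -1.27 to -0.89 and -0.56, and the Tdgf1 siRNA libraries from -1.58 and -1.04 to -1.80 and -1.16.

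Mtr, methionine synthase (chromosome 13, 12182712 to 12258113, minus strand), fell late. Morula controls held 12.5 and 14.4 CPM, morula Tdgf1 siRNA libraries 27.8 and 26.5 CPM, early blastocysts 24.2 and 25.9 against 25.9 and 18.1 CPM, and late blastocysts 12.9 and 13.3 against 9.08 and 15.1 CPM. Every late blastocyst lay below every early blastocyst, a fall of 0.75 on the log2 scale (SE 0.17, adjusted p = 0.00299) that held without any 1 library. At the first step the average of 0.24 did not pass (adjusted p = 0.299). It was 0.75 in controls alone and -0.28 in Tdgf1 siRNA libraries alone (SE 0.24 each), with the morula values by which Mtr had been noticed. Over the whole interval the average fell by 0.51 (adjusted p = 0.0179), with -0.03 in controls and -0.997 in Tdgf1 siRNA libraries, again with the morula values by which Mtr had been noticed. That call was lost without morula control 2 (-0.47, adjusted p = 0.0544) or late blastocyst Tdgf1 siRNA 1 (-0.37, adjusted p = 0.0926).

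Pycr1 (chromosome 11, 120635712 to 120643769, minus strand), the proline gene, resembled Mthfd2. It stood at 3.64 to 6.32 CPM in the 4 morulae and 4.21 to 6.20 CPM in the 4 early blastocysts. In late blastocysts the controls held 27.4 and 19.1 CPM and the Tdgf1 siRNA libraries 4.63 and 10.3 CPM, so Tdgf1 siRNA 1 alone stayed within the range of the earlier stages. With both arms averaged the rise at the second step was 0.97 (SE 0.21, adjusted p = 0.00218). It was 1.60 in controls alone and 0.34 in Tdgf1 siRNA libraries alone (SE 0.30 each), again the contrast by which the gene had been noticed.

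The wider pathways are described by lists whose members were named for their function. Among 10 tested genes of folate handling other than the 10 main genes, 1 rose and 0 fell at the first step, 1 rose and 0 fell at the second, and 2 rose and 2 fell over the whole interval, with median log2 changes of -0.06, 0.04 and 0.04. The gene that rose at both steps was Aldh1l1, which removes carbon units from the folate pool (1.22 and 0.90), at 2.76 ± 1.30 CPM in morulae and 23.8 ± 3.08 CPM in late blastocysts. Over the whole interval Mtfmt, which formylates the mitochondrial initiator tRNA, rose by 0.38, and Tyms, thymidylate synthase, fell by 0.57 on the log2 scale. Mthfd2l, the close relative of Mthfd2, lay below the filter, at most 0.436 CPM in any library.

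Of 12 tested methionine cycle and transsulfuration genes, 5 rose and 2 fell at the first step, 3 rose and 3 fell at the second, and 6 rose and 3 fell in all, with medians of 0.09, -0.05 and 0.21. Cbs, which joins serine to homocysteine, rose at both steps (1.002 and 1.025), whereas Cth, the next enzyme of that route, fell at both (-1.27 and -1.45). Mat2a, which makes the methyl donor S-adenosylmethionine, also fell at both (-0.78 and -0.84). Bhmt, which methylates homocysteine from betaine and so shares its product with Mtr, fell at the second step (-2.05), from 2273 ± 511 CPM in early to 556.5 ± 203 CPM in late blastocysts.

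Of 10 tested genes of glycine cleavage and serine or glycine use, 1 rose and 3 fell at the first step and 4 rose and 3 fell at the second, and 4 rose and 3 fell in all, with medians of -0.24, 0.37 and 0.26. The glycine cleavage genes Gcsh (-1.19 and -0.95) and Gldc (-0.67 and -1.22) fell at both. Slc38a2, an amino acid transporter, rose at the second step (2.58), from 10.5 ± 1.09 CPM in early to 83.4 ± 24.9 CPM in late blastocysts (SD, n = 4 each). Of 12 purine synthesis genes, 1 rose and 4 fell at the first step, 1 rose and 7 fell at the second, and 0 rose and 6 fell in all, with medians of -0.15, -0.39 and -0.32. The largest falls were those of Impdh2 (-2.63 in all) and Impdh1 (-1.54), which commit the pathway to guanine nucleotides.

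Of 7 other tested proline genes, 4 rose and 0 fell at each step, and 5 rose and 1 fell in all, with medians of 0.48, 0.47 and 0.73. Aldh18a1, which makes the precursor of proline from glutamate, was at 1.38 to 5.29 CPM up to the early blastocyst and at 40.1 and 36.0 CPM in late blastocyst controls, against 13.7 and 28.9 CPM in Tdgf1 siRNA libraries. Its rise at the second step was 2.08 (SE 0.23, adjusted p = 1.38e-05). Oat, which links ornithine to the same precursor, rose by 1.57 and Pepd, a peptidase that frees proline, by 0.47.

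Of 15 tested genes of the amino acid response and its regulators, 0 rose and 1 fell at the first step, 8 rose and 0 fell at the second, and 10 rose and 0 fell in all, with medians of -0.12, 0.42 and 0.72. The 4 largest rises at the second step were those of Mycn (2.67), a growth regulator, Nupr1 (2.04), a stress-induced chromatin protein, Asns (1.91), and Trib3 (1.47), a pseudokinase. Nupr1 did not rise in every library: late blastocyst Tdgf1 siRNA 1 held 1.66 CPM, within the early blastocyst range of 0.536 to 2.48 CPM. The other late blastocysts held 25.2 to 34.9 CPM. Atf4 RNA itself rose by 0.75 (SE 0.12, adjusted p = 0.000219), from 126 to 149 CPM in early blastocysts to 185 to 279 CPM in late blastocysts.

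**Figure D3:**
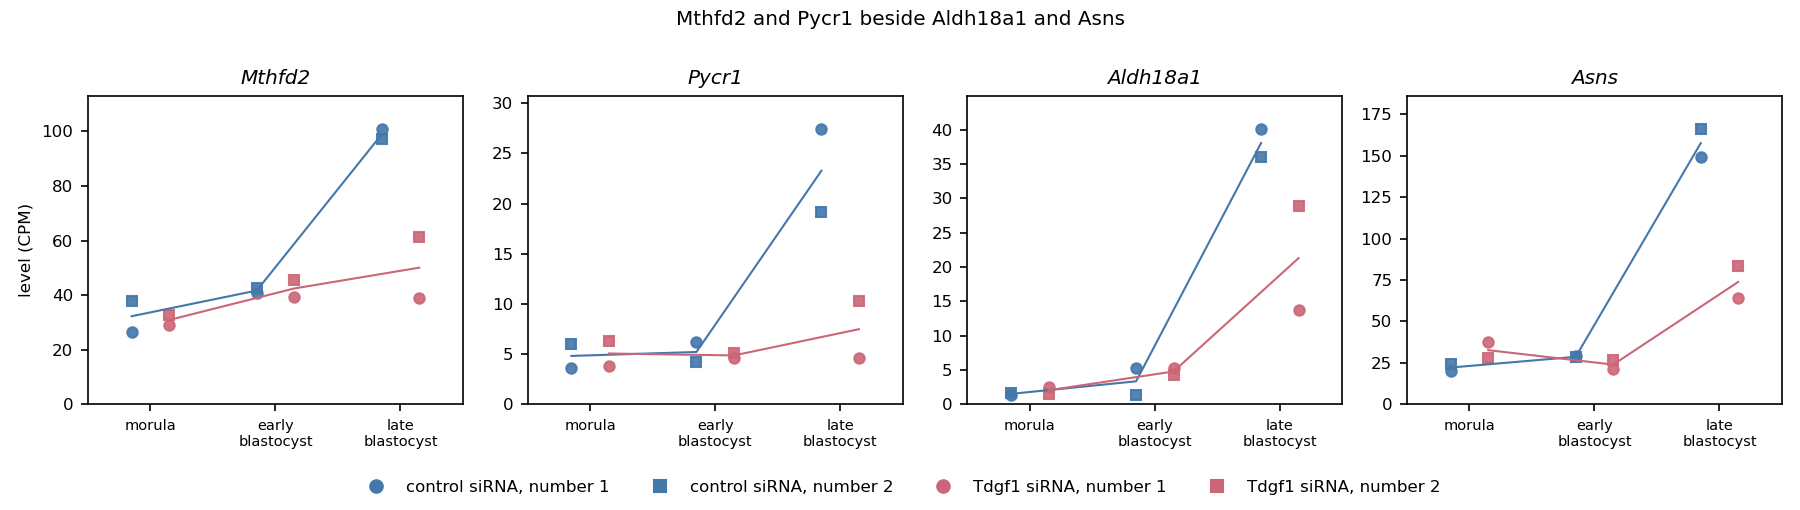
Levels in CPM (vertical axes, each from 0) of Mthfd2, Pycr1, Aldh18a1 and Asns at the 3 stages, control siRNA in blue and Tdgf1 siRNA in red, circles for number 1 and squares for number 2. In each panel both late blastocyst controls lie above both late blastocyst Tdgf1 siRNA libraries.

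Genes whose levels followed a member most closely over the 12 libraries were looked up by Pearson's r of log2(value + 1), a description over libraries that share stage and depth. For Mthfd2 they were Cars, a cysteinyl-tRNA synthetase (0.939), Pycr1 (0.938) and Herpud1, a protein of endoplasmic reticulum quality control (0.938). Mthfd2 and Pycr1 had both been noticed by their late blastocyst values, so their r is not independent of the choice of genes. Herpud1 stood at 5.22 to 12.8 CPM up to the early blastocyst and, in late blastocysts, at 61.6 and 61.8 CPM in controls and 19.4 and 31.0 CPM with Tdgf1 siRNA. Phgdh was followed by 2310031A07Rik (0.936), Ndrg3 (0.923) and Cyp4f39 (0.919), and Mtr by 4930550L24Rik (0.900), Cd3eap (0.866) and Zfp445 (0.865).

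Tdgf1 siRNA was compared with control within each stage to ask what lowering Tdgf1 changed. By limma 0 of the 10751 genes (0%) passed at morula, at early blastocyst, at late blastocyst, on average over the stages, or in the test of a difference between stages. At an unadjusted p under 0.05 there were 194, 112, 221, 268 and 97 genes. The quasi-likelihood test of edgeR gave 0 in each of them, and DESeq2 gave 1 gene at late blastocyst and 0 at the other stages and on average. With same-numbered pairs as a block, 5, 5 and 3 genes passed at the 3 stages, 0 on average and 1 between stages, and the pairing at late blastocyst rests on a correlation of 0.101. The values that follow describe these libraries, 2 against 2.

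At late blastocyst, Tdgf1 siRNA 1 was below control 1 for 10 of the 10 genes, at 16.9% to 81.1% of it with a median of 70.3%. Tdgf1 siRNA 2 was below control 2 for 7 of the 10, with a median of 84.2% and a highest value of 153% (Mthfd1l). The 2 Tdgf1 siRNA libraries both lay below both controls for 5 genes, Mthfd2, Pycr1, Phgdh, Psph and Shmt1, and above them for 0. Over all genes, 31.9% did not overlap at this stage, 13.9% lower and 18% higher. Mthfd2 and Pycr1 had been noticed in this contrast before the list was drawn up, so the count of 5 is not independent of that choice. Pycr1 stood at 16.9% and 54.0% of control in the pairs, a log2 difference of -1.31 (SE 0.30), and Mthfd2 at 38.5% and 63.1%, a difference of -0.97 (SE 0.22). The library Tdgf1 siRNA 1 stood apart on the first component, and without it the differences were -0.93 for Pycr1 and -0.66 for Mthfd2. Without Tdgf1 siRNA 2 they were -1.69 and -1.27. Differences of the other 3 genes were -0.32 (Phgdh), -0.39 (Psph) and -0.39 (Shmt1). The summed trophectoderm markers were also lowest in Tdgf1 siRNA 1 at this stage (6371 CPM), as were the summed primitive endoderm markers (1046 against 1221 to 1267 CPM). Single markers varied: in that library Tfap2c (116 CPM) and Gata6 (284 CPM) were the highest of the stage. Cdx2, Gata3 and Pdgfra were neither highest nor lowest there, and the rest of both lists were lowest. The 7 epiblast markers summed to more in both Tdgf1 siRNA libraries, at 318 and 305 CPM against 249.8 and 250.5 CPM in controls. Nanog, Pou5f1, Esrrb and Prdm14 did not overlap between the arms, whereas Sox2, Fgf4 and Klf2 did. Of the 7, 6 were tested and all had a positive difference, with a median of 0.31. Without control 2 the count was 4 of 6 (median 0.18), and without Tdgf1 siRNA 2 it was 5 of 6 (median 0.26). The part of these markers in the differences was not tested.

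Of the related genes fixed for this comparison, Asns was at 43.0% and 50.3% of control in the late blastocyst pairs (-1.07, SE 0.20) and Atf4 at 72.0% and 85.5% (-0.34, SE 0.17). Aldh18a1 differed by -0.81 (SE 0.32) and did not overlap. Among tested genes of the amino acid response list 13 of 15 had a negative difference, with a median of -0.26, and among the other proline genes 7 of 7, with a median of -0.31. Both moved with single libraries: without Tdgf1 siRNA 1 the counts were 10 of 15 and 4 of 7 and the medians -0.10 and -0.10, and without control 2 they were 10 of 15 and 6 of 7 with medians of -0.24 and -0.16. The median of the 10 genes was -0.29, with 9 of 10 negative, and that of all genes 0.02. The 10 include Mthfd2 and Pycr1, which had been noticed in this contrast beforehand. Without Tdgf1 siRNA 1 the median of the 10 was -0.28, with 7 of 10 negative. The purine (-0.04), glycine (-0.04), folate (-0.04) and methionine (-0.09) lists had medians nearer to 0, between -0.17 and 0.08 with any 1 late blastocyst library left out.

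At the earlier stages Mthfd2 and Pycr1 did not separate the arms. In morulae, Mthfd2 stood at 109% and 86.5% of control. At early blastocyst it stood at 96.8% and 107%. The morula difference was instead in Mtr, at 222% and 184% of control, a log2 difference of 0.85 (SE 0.24) that ranged from 0.78 to 0.93 when any 1 morula library was left out. Phgdh was also higher in both Tdgf1 siRNA morulae (0.30, SE 0.16) and Psph lower (-0.38, SE 0.20). Among all genes 27.5% did not overlap at morula, 15.5% higher and 12% lower. At early blastocyst, where 19.4% of all genes did not overlap (9.38% higher and 10% lower), Phgdh was lower (-0.45, SE 0.16) and Shmt2 higher (0.21, SE 0.20) in both libraries labelled Tdgf1 siRNA, the one numbered 2 being that in which Tdgf1 was not lower. Without it the differences were -0.57 for Phgdh and 0.20 for Shmt2. The 3 of 10 genes that did not overlap at morula and the 2 of 10 at early blastocyst are near these shares of all genes. Those at morula include Mtr, which had been noticed there beforehand. The medians of the 10 genes were 0.09 at morula and -0.05 at early blastocyst.

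**Figure D4:**
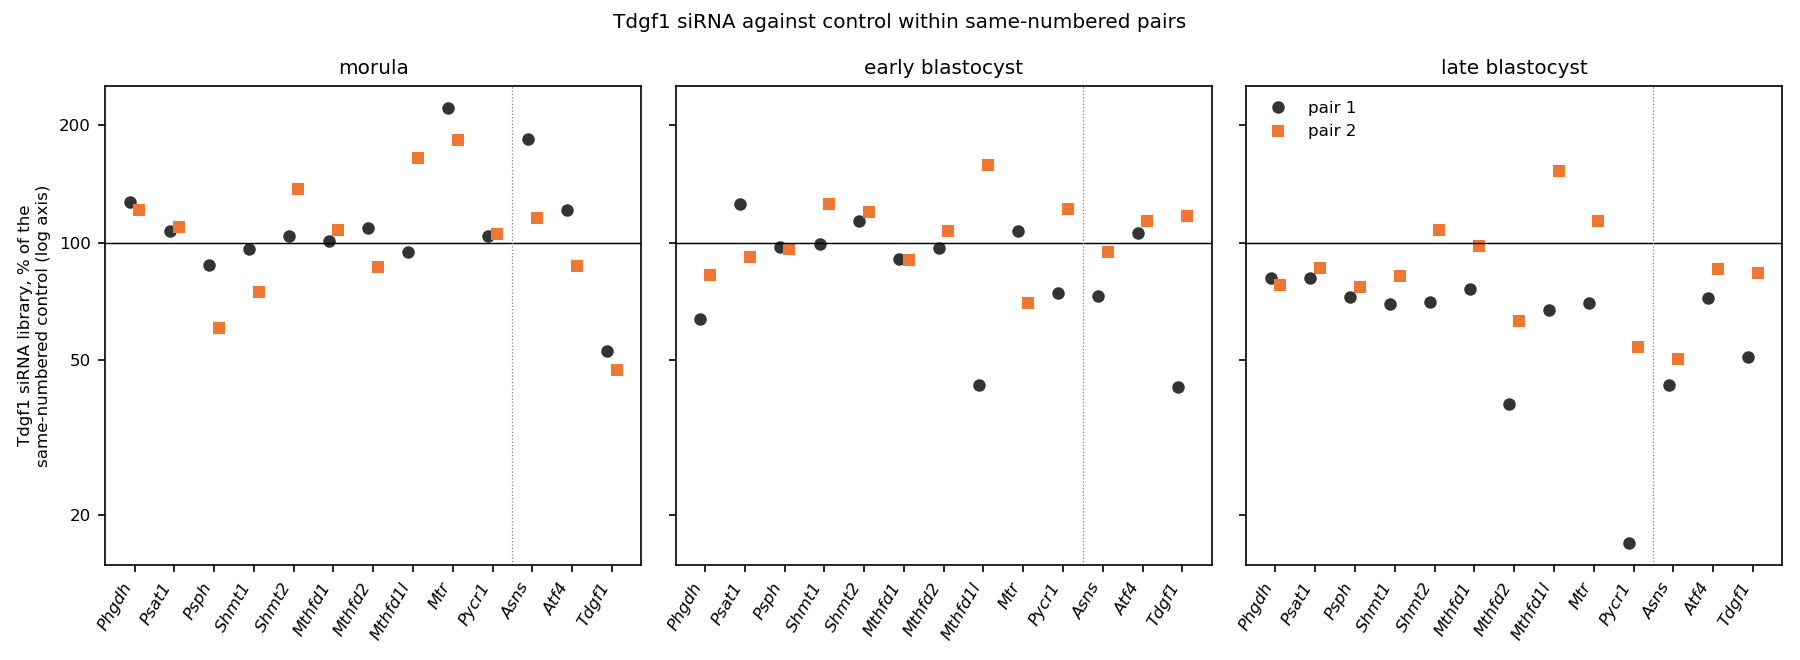
Level in each Tdgf1 siRNA library as a percent of the same-numbered control (vertical log axis, line at 100%) for the 10 genes and, right of the dotted line, Asns, Atf4 and Tdgf1. Circles are pair 1 and squares pair 2. At late blastocyst Pycr1 (16.9% and 54.0%) and Mthfd2 (38.5% and 63.1%) lie lowest of the 10, and at morula Mtr (222% and 184%) lies highest.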

How the data were processed

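RNA-seq libraries were made from total RNA with the SMARTer Ultra Low Input and NEBNext Ultra DNA kits, per the labels' protocols, and strand is not stated. The submitters' processing notes list HISAT2 2.1.0, Cufflinks, HTSeq and edgeR and the build mm10, without role or order. The authors deposited 1 table headed RPKM per the file headers, but every column summed to 279173.646 and its values were whole multiples of 1 step (100% whole within 0.01 reads), so they are CPM divided by 3.582 and were multiplied by that constant. The planned test had assumed RPKM and was kept, in the deposited unit. A count of 0 allows up to 3 reads, or 0.218 to 0.285 CPM, for counting error only.

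Genes averaging 1 deposited unit or more over the 12 libraries were fitted with limma 3.58.1 (eBayes with trend, R 4.3.3) on log2(value + 1), with 6 group means, 6 residual and 7.55 prior degrees of freedom. Stage differences averaged both arms. The limma fits, with and without a term for number or pair, and the edgeR and DESeq2 fits were tested on simulated data. This covered the step from early to late blastocyst and the siRNA difference at late blastocyst, and no other code. Alternatives were other pseudocounts, filters, scalings (quantile, TMM), edgeR 4.0.16 and DESeq2 1.42.0 on the recovered reads, each arm or number alone, and each library left out. Libraries of 1 group differed beyond read sampling (chi-square per gene 15.4 to 37.0), so none were merged. Deviations of same-numbered libraries correlated at 0.458 (morula), 0.593 and 0.101 (late blastocyst) between arms, so numbers were taken, from the data alone, to pair libraries within a stage. Controls of neighbouring stages correlated at 0.00575 and 0.138 and were not taken as paired across stages. Since 0.138 is above the late blastocyst value, the late blastocyst pairing and its block are uncertain. Lists with each late blastocyst library left out were an alternative chosen after seeing the data.

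The genes and lists were chosen with earlier results of these data known. Named were all 10 genes, up to 4 passing genes with the largest change per list and comparison, Atf4, Asns and Aldh18a1 for the siRNA, and the 3 genes closest to Mthfd2, Phgdh and Mtr. Some genes that this rule named are not reported here. Exon lengths and positions are from GENCODE M21 (GRCm38, 1-based) and promoter sequences from RefSeq. Python 3.11.15, pandas 2.3.3, numpy 2.4.6 and matplotlib 3.10.9 were used.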

Additional observations from a re-analysis of the deposited data

Results flagged for a closer look

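For each of the 10 genes the 4 libraries of a stage were checked for 1 that stood apart, by Dixon's ratio of its gap to the range. Of 30 sets 2 exceeded the 95% critical value, and chance alone flags about 1 in 20. Mthfd1 in late blastocyst control 1 stood at 189.6 CPM, above the 141.6 to 144.5 CPM of the other 3 libraries (ratio 0.94). Shmt2 in morula control 2 stood at 28.98 CPM, below the 39.8 to 42.0 CPM of the other morulae (ratio 0.831).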

How the results depend on the processing

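Of the 23 stage calls of the 10 genes, 14 held whichever library was left out and 9 did not, and the counts ranged over 3 to 6, 4 to 8 and 8 to 9 for the first step, the second step and the whole interval. The first step gave 3 calls with no filter on low values and 3 in Tdgf1 siRNA libraries alone. The second gave 5 with no filter, 5 in controls alone, 2 in Tdgf1 siRNA libraries alone and 3 in libraries numbered 1 alone. Counts within 1 arm are a description, since they use the values by which Mthfd2, Pycr1 and Mtr had been noticed. The share of all genes passing in each setting is not given here, so these counts are not read as particular to the 10 genes. With the library number as a term shared by all stages the counts were 7, 8 and 9. Among the 10 genes this term changed only the call of Mthfd2 at the first step. Some changes that had not passed turned sign: Pycr1 at the first step to -0.0696 (quantile), -0.0023 (TMM), -0.0231 (edgeR), -0.0374 (DESeq2), -0.018 (Tdgf1 siRNA alone), -0.24 (number 2 alone) and -0.0794 to 0.132 with a library left out, Mthfd1l there to 0.0969 (controls), 0.21 (number 1) and -0.273 to 0.0801, Mtr there to -0.28 (Tdgf1 siRNA), Shmt1 at the second step to -0.12 (Tdgf1 siRNA), and Shmt2 over the interval to -0.0254 (quantile), -0.0282 (Tdgf1 siRNA) and -0.0429 (number 1). So did the first-step balance of Mthfd2 with Mthfd1 (0.0172 with a pseudocount of 0.1, 0.137 for number 2, -0.122 to 0.0878) and of Shmt2 with Shmt1 (0.0299 for number 1, -0.184 to 0.085). The causes were not tested. Over the whole interval the higher share of all calls was 51.3% with TMM, 51.1% with edgeR and 50.3% with DESeq2. At the second step quantile scaling left 4 of the 10 genes higher and 4 lower. Leaving out a library left an arm with 1 sample, assumed to vary like the other groups. Genes near 40 reads (Pycr1, Mthfd1l) are the least precise.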
